A study of Mus musculus with 20 samples.

Results

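The transcripts described here encode the subunits of the 3 nuclear RNA polymerases (genes named Polr1, Polr2 and Polr3), the general transcription factors (Gtf1 to Gtf3), the TBP-associated factors (Taf), the Mediator subunits (Med) and Tbp, the TATA-binding protein. Members were found by gene symbol, and the set was proposed with earlier results of these data known. They comprise 137 of 22690 probe sets on the array and 85 of the 12393 genes that a probe set names alone. Of these, 83 genes with 127 probe sets were bright enough to be tested, among 10257 genes tested in all. Taf7l, a germ-cell relative of Taf7, exceeded the intensity minimum of 32.9 on 2 of 20 arrays, and Polr3gl, an alternative Pol III subunit, on 3, so neither was tested.

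Transcription by RNA polymerase II begins when TFIID, built of TBP and TAFs, binds a promoter and the factors TFIIA, TFIIB, TFIIE, TFIIF and TFIIH place the enzyme and open the DNA, while Mediator passes signals from activators to the polymerase. Polymerase I makes the large ribosomal RNAs with the help of SL1, a complex of TBP and other TAFs, and polymerase III makes transfer RNAs and other small RNAs with TFIIIA and TFIIIC. A fully grown mouse oocyte is transcriptionally silent and carries stored transcripts, many of which are degraded as the embryo's own genome becomes active, a change centred on the 2-cell stage.

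The study profiled mouse oocytes and preimplantation embryos of 1 cell, 2 cells and 8 cells as well as blastocysts, each on 4 Affymetrix MOE430A arrays. The labels give no strain, maternal age, treatment or number of embryos for any group, and they do not say whether the oocytes were immature or whether the 4 arrays came from separate collections. Total RNA went through repeated in vitro transcription before hybridization. The p-values below thus reflect the scatter among these 4 arrays a stage, which could be technical, and precision is limited by their number.

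Values are intensities that the authors scaled to a common trimmed mean, so each is relative to the rest of the array. Whole oocytes and embryos were measured, so in the blastocyst, which holds several cell types, fewer cells of a type and less RNA per cell cannot be told apart. Arrays of 1 stage correlated at 0.931 to 0.971 over the 17208 probe sets bright enough to be tested. Oocyte markers summed to 22544 to 25918 on oocyte arrays and to 146 to 206 on blastocyst arrays, and blastocyst markers to 313 to 352 and 10433 to 12357. Markers of cumulus cells stayed at 77.1 to 319 on all arrays and those of sperm at 69.5 to 226. The markers of oviduct and blood summed to 68.3 to 162 on oocyte arrays, 110 to 165 on 1-cell arrays, 283 to 821 on 2-cell arrays and at most 105 in blastocysts. They reached 3174 on the second 8-cell array, and the counts of members at the neighbouring steps were 12 higher and 36 lower, and 10 higher and 35 lower, without it. The ratio of 3′ to 5′ actin probe sets, a sign of RNA integrity and of the amplification, had stage means from 1.99 in the blastocyst to 4.74 in the oocyte. The same ratio for Gapdh averaged 4.70 in oocytes, 4.76 on 1-cell arrays, 5.43 on 2-cell arrays, 1.28 on 8-cell arrays and 5.81 in blastocysts. The part of these values in the results was not tested.

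Changes are given on the scale log2(intensity + 12.15), later stage minus earlier stage, with moderated standard errors (SE), and they understate the change of dim genes. A gene was called higher or lower where limma's Benjamini-Hochberg adjusted p, over all tested probe sets, was under 0.05. The brightest probe set stood for a gene. Consecutive comparisons share the arrays of the stage between them, so their counts are not independent of each other. Stage means are given with the SD over 4 arrays.

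From the oocyte to the 1-cell embryo, 31 of 83 members fell (37.3%) and 19 rose (22.9%), where 16.6% of all tested genes fell and 15.2% rose. The median change was -0.10 for the members and 0.09 for all genes. Genes named Polr fell in 13 of 23 cases and rose in 2, with a median of -0.64, which was negative under each scaling tried. Of these falls, those of Polr1a, Polr2e, Polr3c and Polr3e were called in only 1 of several tested probe sets. The Gtf genes counted 4 higher and 6 lower of 18 and the Med genes 8 higher and 6 lower of 27, with medians of 0.07 and 0.11 that became -0.82 and -0.81 when arrays were scaled to the added hybridization controls. That scaling moved the median of all genes from 0.09 to -0.77, so it is no separate check on the falls or on the negative Polr median. It kept 31 of the 31 falls and 0 of the 19 rises, 12 of which changed sign, so each rise at this step is a rise relative to the other transcripts of the array. The control probe set for 18S ribosomal RNA read 12665 ± 1877 on 1-cell arrays against 196 ± 57.6 on oocyte arrays, and its part in these differences was not tested.

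From the 1-cell to the 2-cell embryo the larger share of called members rose. The count was 35 higher (42.2%) and 19 lower (22.9%), against 22% and 22.7% of all genes tested, and the median was 0.37 against -0.07. Of the 23 Polr genes, 17 rose and 3 fell, with a median of 1.44. That count takes each gene's brightest probe set. In Polr1c and Polr1e both probe sets were called higher. In Polr1a, Polr1d, Polr2a, Polr2e, Polr2f, Polr3a, Polr3c and Polr3e, only 1 of several tested probe sets was called higher. In Polr3k 2 were called higher and 2 lower. The Gtf genes counted 8 higher and 5 lower, and Tbp with the Tafs 5 higher and 3 lower of 15. The 27 Med genes counted 5 higher and 8 lower, with a median of -0.08 that became 0.11 under control scaling. All of the 35 rises and 11 of the 19 falls kept their call under that scaling. It moved the median of all genes upward, to 0.11, so it is no separate check on the rises. The 18S probe set read 639 ± 116 on 2-cell arrays, and its part was not tested.

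Both later steps counted more falls than rises on the authors' scale. Going from 2 cells to 8 cells, 37 members fell (44.6%) and 12 rose (14.5%), where 25.7% of all genes fell and 22.2% rose, with medians of -0.30 for members and 0.04 for all genes. From the 8-cell embryo to the blastocyst, 35 fell (42.2%) and 9 rose (10.8%), where 26.4% of all genes fell and 20% rose, with medians of -0.40 and -0.22. Mediator genes counted 13 lower and 3 higher at the first of these steps and 11 lower and 2 higher at the second, where control scaling gave 13 higher and 0 lower.

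The direction of the last step depended on the scaling. With the hybridization controls as reference the median of all genes from 8-cell to blastocyst moved from -0.22 to 0.67, the members counted 37 higher and 0 lower, and 0 of the 35 falls kept their call while 22 changed sign. The share of rises among all called genes moved with it from 43.1% to 95.8%. At the step from 2-cell to 8-cell the same scaling moved the median of all genes to -0.40, so it is no separate check on the falls there. It kept 37 of the 37 falls and 0 of the 12 rises. Falls into the blastocyst are therefore reported relative to the array's other transcripts.

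Over the whole course, oocyte to blastocyst, 40 of 83 members fell (48.2%) and 19 rose (22.9%), against 33.6% and 26.2% of all genes. The median was -0.55 for members and -0.20 for all genes. Control scaling kept 40 of the 40 falls and 16 of the 19 rises. It moved the median of all genes from -0.20 to -0.45, so it is no separate check on the falls. Mediator genes fell in 17 of 27 cases and rose in 2, with a median of -1.01, and Polr genes counted 9 each way with a median of -0.03, which was 0.03 when arrays were centred on their medians. The stage mean was highest at the 2-cell stage for 23 members, in the oocyte for 19, at the 1-cell stage for 19, at the 8-cell stage for 16 and in the blastocyst for 6. Among all genes tested the oocyte held the highest mean for 16.2%, the 1-cell stage for 25.7%, the 2-cell stage for 14.9%, the 8-cell stage for 25.7% and the blastocyst for 17.6%.

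**Figure D1:**
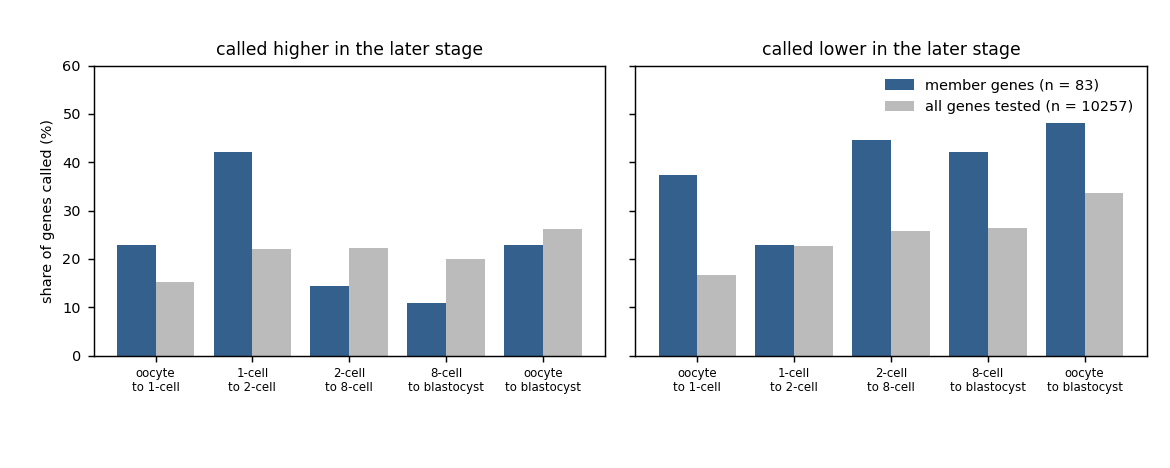
The share of genes called higher (left) or lower (right) in the later stage at each of the 5 comparisons, in percent on an axis from 0, for the 83 member genes (dark bars) and all 10257 tested genes (grey bars). The member share of rises is largest at the step from 1-cell to 2-cell, 42.2% against 22%, and the falls into the blastocyst hold on the deposited scale but not under control scaling.

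**Figure D2:**
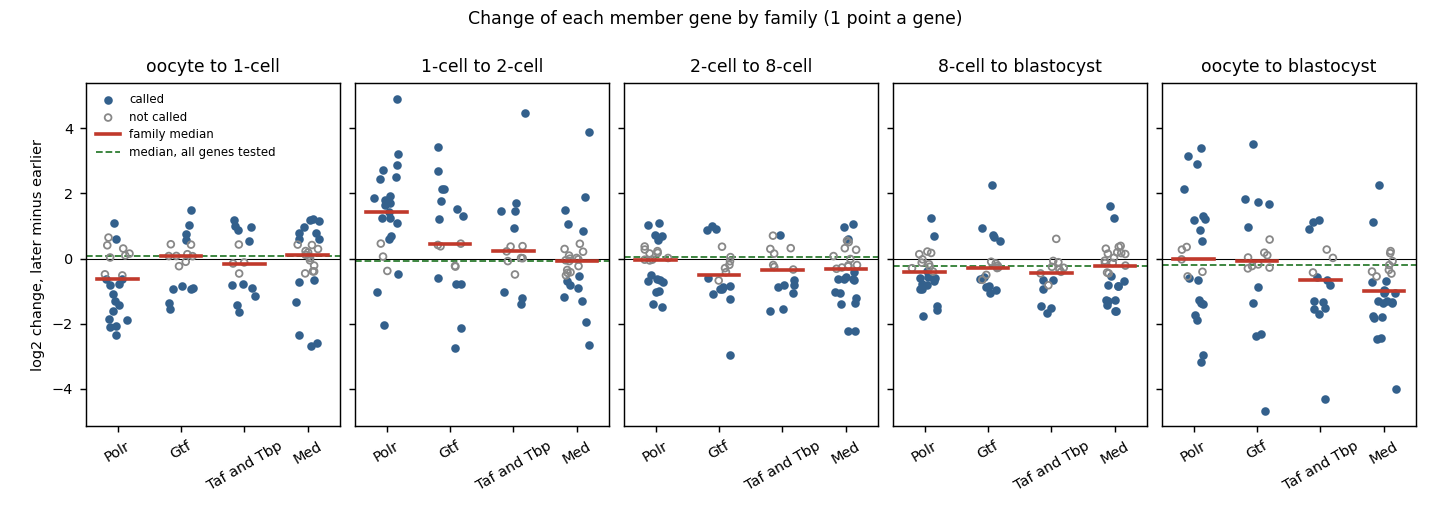
The log2 change of each member gene's brightest probe set at the 5 comparisons, 1 point a gene, by family (Polr, Gtf, Taf with Tbp, Med). Filled points are called, the red bar is the family median and the dashed green line the median of all tested genes; the Polr median is -0.64 at the first step and 1.44 at the second, and the values of the step from 8-cell to blastocyst shift upward under control scaling.

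The promoters of members with large changes between the 1-cell and the 2-cell stage are shown to set the groups side by side, since 35 of 83 members rose there. The sequences are the 150 bases before the transcript start from RefSeq on build GRCm38.p6, 5′ to 3′ on the gene's strand. They belong to the 3 largest called rises and the 2 largest called falls among genes that the RefSeq table lists and whose window overlaps no annotated gene. A single chromosome was also left out of this choice. Polr1c and Taf1d, with larger rises, and Med22 and Gtf2a1l were passed over because their windows overlap an annotated gene. Polr2g, Med30 and Taf7, which like Med22 and Gtf2a1l had falls between those of Gtf2b and Med17, are named only. Capitals mark matches, on either strand, to the TATA box TATAAA, the CCAAT box CCAAT, the GC box GGGCGG, the ETS-factor core CGGAAG, the NRF-1 core GCATGCG or the YY1 core AAGATGG. Med29 lies on the minus strand at chr7:28392691-28392840, Gtf3c5 on the minus strand at chr2:28583280-28583429 and Polr1e on the plus strand at chr4:45018459-45018608, and all 3 rose. Gtf2b lies on the plus strand at chr3:142765097-142765246 and Med17 on the minus strand at chr9:15279907-15280056, and both fell.
Med29: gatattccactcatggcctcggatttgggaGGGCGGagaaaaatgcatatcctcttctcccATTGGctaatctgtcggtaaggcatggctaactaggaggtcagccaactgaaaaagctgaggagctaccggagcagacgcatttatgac
Gtf3c5: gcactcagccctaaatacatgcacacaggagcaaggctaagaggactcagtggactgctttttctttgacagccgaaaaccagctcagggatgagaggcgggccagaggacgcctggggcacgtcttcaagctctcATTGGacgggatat
Polr1e: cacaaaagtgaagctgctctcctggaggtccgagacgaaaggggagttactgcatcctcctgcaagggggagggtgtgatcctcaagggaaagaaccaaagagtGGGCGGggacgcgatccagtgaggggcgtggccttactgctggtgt
Gtf2b: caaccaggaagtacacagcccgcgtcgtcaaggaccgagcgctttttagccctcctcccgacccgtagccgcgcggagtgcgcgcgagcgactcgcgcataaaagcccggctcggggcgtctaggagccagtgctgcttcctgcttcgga
Med17: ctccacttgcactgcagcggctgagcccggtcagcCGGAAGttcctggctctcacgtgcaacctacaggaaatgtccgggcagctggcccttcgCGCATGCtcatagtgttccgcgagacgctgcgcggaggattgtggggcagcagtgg

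In these windows Med29 held GGGCGG and CCAAT, Gtf3c5 held CCAAT, Polr1e held GGGCGG, Med17 held CGGAAG and GCATGCG, and Gtf2b held none of the 6 motifs. The RefSeq table held 88 promoters of 75 of the 85 members, each a window of 300 bases from 250 before to 50 after the start. CGGAAG occurred in 48.9% of member promoters and in 16.9% of all 32851 promoters. GGGCGG occurred in 58.0% and 35.7%, GCATGCG in 14.8% and 3.58%, and AAGATGG in 11.4% and 6.34%. TATAAA occurred in 12.5% and 13.6% and CCAAT in 35.2% and 37.4%. Members that rose at the 2-cell stage (39 promoters) held CGGAAG in 53.8% and GGGCGG in 66.7%, and members that fell (19 promoters) in 52.6% and 42.1%. The order was the other way for GCATGCG (10.3% of the first group and 26.3% of the second), AAGATGG (5.13% and 15.8%), CCAAT (33.3% and 42.1%) and TATAAA (12.8% and 15.8%). These shares are descriptions of letters in a window and were not tested.

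The genes of polymerase I and the subunits shared between polymerases gave the largest rise among the members at the 2-cell stage. Polr1c, a subunit common to polymerases I and III, read 38.1, 40.1, 44.9 and 38.2 on the 4 1-cell arrays and 1193, 1582, 2379 and 1330.2 on the 2-cell arrays. The groups did not overlap, and the lowest 2-cell array lay far above the highest 1-cell array. The rise was 4.91 ± 0.20 (SE; limma adjusted p = 4.04e-17), and the gene's other probe set rose by 3.72. Polr1c was 63.2 ± 19.7 in the oocyte, 2340.4 ± 207 at the 8-cell stage and 776 ± 154 in the blastocyst, still 3.40 ± 0.20 above the oocyte. Into the blastocyst it fell by 1.59 ± 0.20, which became -0.50 and was not called under control scaling.

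Polr1e, a polymerase I subunit that helps initiation, moved down and then up. It read 122, 145, 152 and 108 in oocytes, 24.1, 19.6, 33.4 and 35.5 on 1-cell arrays and 276, 388, 418 and 348 on 2-cell arrays. No value of a stage lay within the range of the next. It fell by 1.84 ± 0.19 and then rose by 3.20 ± 0.19, and both of its probe sets carried both calls. Polr1a, the catalytic subunit of polymerase I, read 128, 62.8, 86.1 and 87.8 in oocytes, 10.5, 11.4, 8.7 and 18.4 on 1-cell arrays and 119, 140.1, 174 and 167 on 2-cell arrays. Its 1-cell values lay below the intensity minimum. The fall was 2.06 ± 0.23 and the rise 2.73 ± 0.23, and neither was called by the gene's other 2 probe sets, whose changes were -0.60 and 0.23 at the first step and 0.11 and 0.05 at the second. Polr1b, the other large subunit, changed by 0.31 ± 0.23 and 0.46 ± 0.23 at these steps and rose by 0.72 ± 0.23 at the 8-cell stage.

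All 5 tested subunits shared between polymerases rose from the 1-cell to the 2-cell embryo, by 1.44 to 4.91 with a median of 1.79. At this step 22% of all genes tested rose. Polr2h, common to the nuclear polymerases, read 52.0, 91.7, 84.5 and 44.1 and then 409, 368, 478 and 376, without overlap, a rise of 2.43 ± 0.21. Polr2e and Polr2f, which are also shared by the nuclear polymerases, rose by 1.79 ± 0.21 and 1.44 ± 0.18, and Polr1d, the partner of Polr1c, by 1.64 ± 0.20. In each of these 3 genes the other probe set was not called at this step and changed by -0.32, -0.06 and -0.03. By their brighter probe sets, 4 of the 5 genes were higher in the blastocyst than in the oocyte, and Polr1d was not called (-0.03 ± 0.20). Of all genes tested, 26.2% rose over that span. Both probe sets of Polr1c were called higher. The other probe sets of Polr2e and Polr2f were not called, at -0.209 and -0.325, and that of Polr1d was called lower, at -0.866. The Polr2f rise of 0.54 became 0.27, not called, under control scaling. The probe sets of Polr1d were called in opposite directions from 8-cell to blastocyst, at -0.79 and 1.15.

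Among the 8 polymerase II genes, 5 fell and 1 rose from oocyte to 1-cell, and 5 rose and 3 fell from 1-cell to 2-cell. Of all genes tested, 16.6% fell and 15.2% rose at the first step, and 22% rose and 22.7% fell at the second. Polr2b, which with Polr2a forms the catalytic centre, read 1082, 1524, 1721 and 1812 in oocytes and 268, 255, 416 and 464 on 1-cell arrays, then 1279, 1328, 1360.0 and 1348 on 2-cell arrays. The 1-cell arrays lay below every array of both neighbouring stages. The changes were a fall of 2.11 ± 0.20 and a rise of 1.93 ± 0.20, after which no step was called. Polr2i, a small subunit that aids start-site choice, fell by 1.89 ± 0.19 and rose by 1.10 ± 0.19.

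Polr2a, the largest polymerase II subunit, whose tail carries the phosphorylation marks of the transcription cycle, was measured by probe sets that disagreed. The brighter read 74.9, 48.7, 40.8 and 58.2 in oocytes, 124, 124, 164 and 112 on 2-cell arrays and 160.1, 174, 141 and 143 in blastocysts, and blastocyst values lay above all oocyte values. It rose by 1.32 ± 0.21 from oocyte to blastocyst, while the other probe set fell by 1.04. The rise of 0.68 ± 0.21 at the 2-cell stage was 0.53 (limma adjusted p = 0.056) without the second 1-cell array. No direction for Polr2a as a gene can be read from these arrays.

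Polr2c, an assembly subunit of polymerase II, and the stalk subunits Polr2d and Polr2g followed other courses. Polr2c read 2428, 2391, 2249 and 2835 in oocytes and 5475, 5917, 5258 and 4353 on 1-cell arrays. The groups did not overlap, and the rise of 1.08 ± 0.16 became 0.04, not called, under control scaling. It then fell by 1.01 ± 0.16 and 1.41 ± 0.16. Polr2d went from 2952 ± 199 in the oocyte to 370.0 ± 34.9 in the blastocyst, a fall of 2.96 ± 0.17. Polr2g fell by 2.06 ± 0.20 at the 2-cell stage and rose by 1.24 ± 0.20 into the blastocyst, and its fall from oocyte to blastocyst was 1.40 ± 0.20.

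Polr2m encodes Gdown1, a protein that associates with polymerase II and blocks some general factors. It read 152, 107, 117 and 129 in oocytes, 73.0, 106, 63.2 and 67.3 on 1-cell arrays, 275, 289.6, 376 and 288 on 2-cell arrays, 571, 601, 590.4 and 794 on 8-cell arrays and 923, 994, 1025 and 1180.1 in blastocysts. From the 2-cell stage on, every array of a stage lay above every array of the stage before. The fall of 0.64 ± 0.17 was followed by rises of 1.85 ± 0.17, 1.03 ± 0.17 and 0.69 ± 0.17, of which the middle one was not called under control scaling. The blastocyst was 2.92 ± 0.17 above the oocyte.

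Polymerase III genes fell in 4 of 7 cases with no rise from oocyte to 1-cell, where 16.6% of all genes fell and 15.2% rose. They rose in 5 of 7 with no fall from 1-cell to 2-cell, where 22% of all genes rose and 22.7% fell. Polr3a, the catalytic subunit, read 1184, 1325, 1345 and 1616 in oocytes, 284, 190.3, 233 and 342 on 1-cell arrays, 474, 557, 847 and 691 on 2-cell arrays and 164, 134, 118 and 143 in blastocysts. The oocyte values lay above all others. It fell by 2.35 ± 0.19, rose by 1.25 ± 0.19 and fell again by 1.49 ± 0.19, and its fall from oocyte to blastocyst was 3.18 ± 0.19. The other probe set carried the calls of the falls but not of the rise, at 0.23.

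Polr3g, a polymerase III subunit whose variant Polr3gl takes its place in many adult tissues, was near or below the intensity minimum before the 2-cell stage. It read 19.6, 38.6, 15.8 and 13.6 in oocytes, 30.5, 26.9, 18.5 and 22.5 on 1-cell arrays, 189, 236, 288 and 319.9 on 2-cell arrays and 485, 628, 514 and 596 on 8-cell arrays. The 2-cell values lay above all earlier ones and the 8-cell values above those. The rises were 2.86 ± 0.21 and 1.09 ± 0.21, the latter not called under control scaling, and the blastocyst, at 284 ± 36.7, was 3.16 ± 0.21 above the oocyte. Polr3gl itself read 4.70 to 45.9 over the 20 arrays.

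Polr3k, the subunit used in termination, had 4 tested probe sets that split at the 2-cell stage. The brightest went from 505 ± 75.1 to 1681 ± 257, a rise of 1.71 ± 0.21, while 2 probe sets were called higher and 2 lower, from -1.73 to 1.71, and their mean changed by -0.02. All 4 fell from oocyte to blastocyst, with changes from -1.94 to -1.11. Polr3e rose by 2.51 ± 0.21 at the 2-cell stage on one probe set and changed by -0.46, not called, on the other. Polr3c, of the subunit trimer that opens promoters, rose by 1.26 ± 0.20 at that step, while Polr3f of the same trimer and Polr3d, of a separate part, were not called (0.06 ± 0.25 and -0.38 ± 0.30). The dimmer probe set of Polr3d rose there by 0.77 and that of Polr3f fell by 0.75, while that of Polr3c was not called (0.38).

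**Figure D3:**
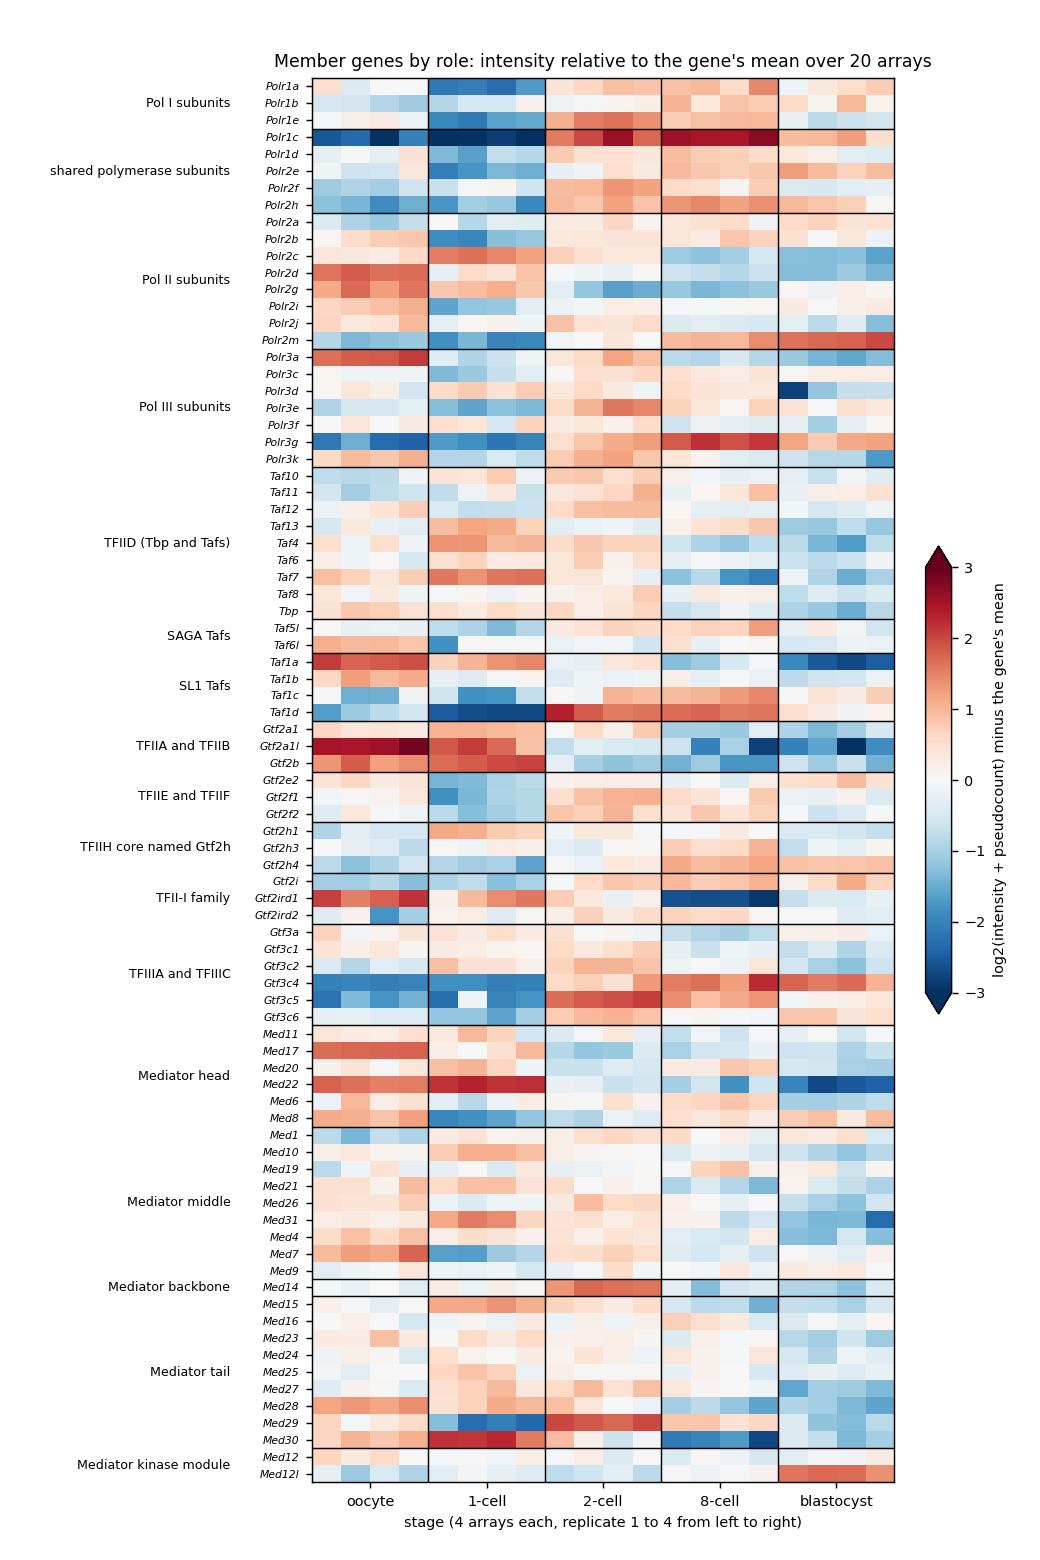
Each row is 1 of the 83 tested member genes, grouped by role, and each column 1 of the 20 arrays by stage; colour gives log2(intensity + 12.15) minus the gene's mean over all arrays, cut at 3 either way. In the polymerase rows the 1-cell columns are the low ones for genes such as Polr1e and Polr2b. The rows of TFIIA and TFIIB are high in the oocyte and 1-cell columns, and that of Gtf2a1 also in the 2-cell columns.

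Of the 4 consecutive steps, those into the 1-cell and the 8-cell stage held the most called TFIID genes. Of 9 tested, 5 rose and 1 fell from oocyte to 1-cell, with a median of 0.54 that became -0.35 with 0 rises under control scaling. Among all genes tested, 15.2% rose and 16.6% fell at that step. From 2-cell to 8-cell 6 fell and 1 rose, where 25.7% of all genes fell and 22.2% rose. The TFIID median was -0.81 and was negative under each scaling. Control scaling moved the median of all genes there from 0.04 to -0.40, so it is no separate check on these falls. Tbp read 342, 440.1, 407 and 335 in oocytes, 356, 304, 377 and 324 on 1-cell arrays, 381, 282, 325 and 388 on 2-cell arrays, 144, 169.5, 225 and 189 on 8-cell arrays and 122.5, 105, 79.7 and 133 in blastocysts. The first 3 stages overlapped one another, and the later stages each lay below all earlier ones. The changes were -0.15 ± 0.18 and 0.01 ± 0.18, not called, then falls of 0.88 ± 0.18 and 0.67 ± 0.18, the last of which turned to a change of 0.34 in the opposite direction, not called, under control scaling. From oocyte to blastocyst Tbp fell by 1.70 ± 0.18 (limma adjusted p = 3.23e-09).

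Taf7, a TAF that binds and restrains the acetyltransferase part of TFIID, read 285, 245, 191 and 250.2 in oocytes, 463, 388, 472 and 484 on 1-cell arrays, 193, 193, 156 and 122 on 2-cell arrays and 55.3, 76.1, 33.7 and 25.5 on 8-cell arrays. Each stage lay apart from its neighbours. The rise of 0.87 ± 0.25 turned to -0.13 under control scaling, and the falls were 1.40 ± 0.25 and 1.63 ± 0.25, with both probe sets called at each step. Taf4, a structural core subunit, rose by 0.99 ± 0.21, which became -0.002 under control scaling, and fell by 1.55 ± 0.21 at the 8-cell stage. Taf13, a histone-fold subunit, was 1099.5 ± 297, 2466 ± 374, 1041 ± 80.4, 1759.9 ± 329.8 and 605 ± 80.8 in stage order, with steps of alternating direction that were all called. Under control scaling neither rise was called, nor was the last fall.

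Taf12 and Taf10 are histone-fold subunits shared with SAGA. Taf12 fell by 0.91 ± 0.19, rose by 1.47 ± 0.19 and fell by 1.06 ± 0.19. Taf10 rose by 0.96 ± 0.19 into the 1-cell stage, a change of -0.06 under control scaling, and fell by 0.81 ± 0.19 at the 8-cell stage. Its other probe set was called at neither step, at 0.17 and 0.03. Taf11, another histone-fold subunit, rose by 0.93 ± 0.26 at the 2-cell stage, and Taf6 and Taf8 were not called there (0.02 ± 0.19 and 0.37 ± 0.20). The Tafs of SAGA, a coactivator with histone acetyltransferase activity, both fell into the 1-cell stage, where 16.6% of all genes tested fell. Taf5l fell by 0.80 ± 0.20 and then rose by 1.47 ± 0.20. Taf6l fell by 1.43 ± 0.29, a size that leans on the first 1-cell array, at 12.7 against 73.1 to 77.5 on the others.

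The 4 SL1 genes, which serve polymerase I, parted at the 2-cell stage. Taf1d read 32.1, 27.5, 26.2 and 26.3 on 1-cell arrays and 1247, 893, 726 and 759 on 2-cell arrays. The groups lay far apart, and the rise was 4.48 ± 0.20 (limma adjusted p = 3.31e-16), with 3 of its 4 tested probe sets called higher, from 0.33 to 4.48. Taf1a read 1372, 1070.3, 1148 and 1228 in oocytes, 508, 639, 809 and 871 on 1-cell arrays, 267, 259, 404 and 433 on 2-cell arrays, 121, 140.4, 217 and 296 on 8-cell arrays and 72.3, 43.7, 37.4 and 45.4 in blastocysts. It was lower at each stage than at the one before, with overlap only between the 2-cell and 8-cell arrays. The fall from oocyte to blastocyst was 4.32 ± 0.24. Taf1b fell by 1.53 ± 0.19 over the same span, and Taf1c rose by 1.14 ± 0.35.

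**Figure D4:**
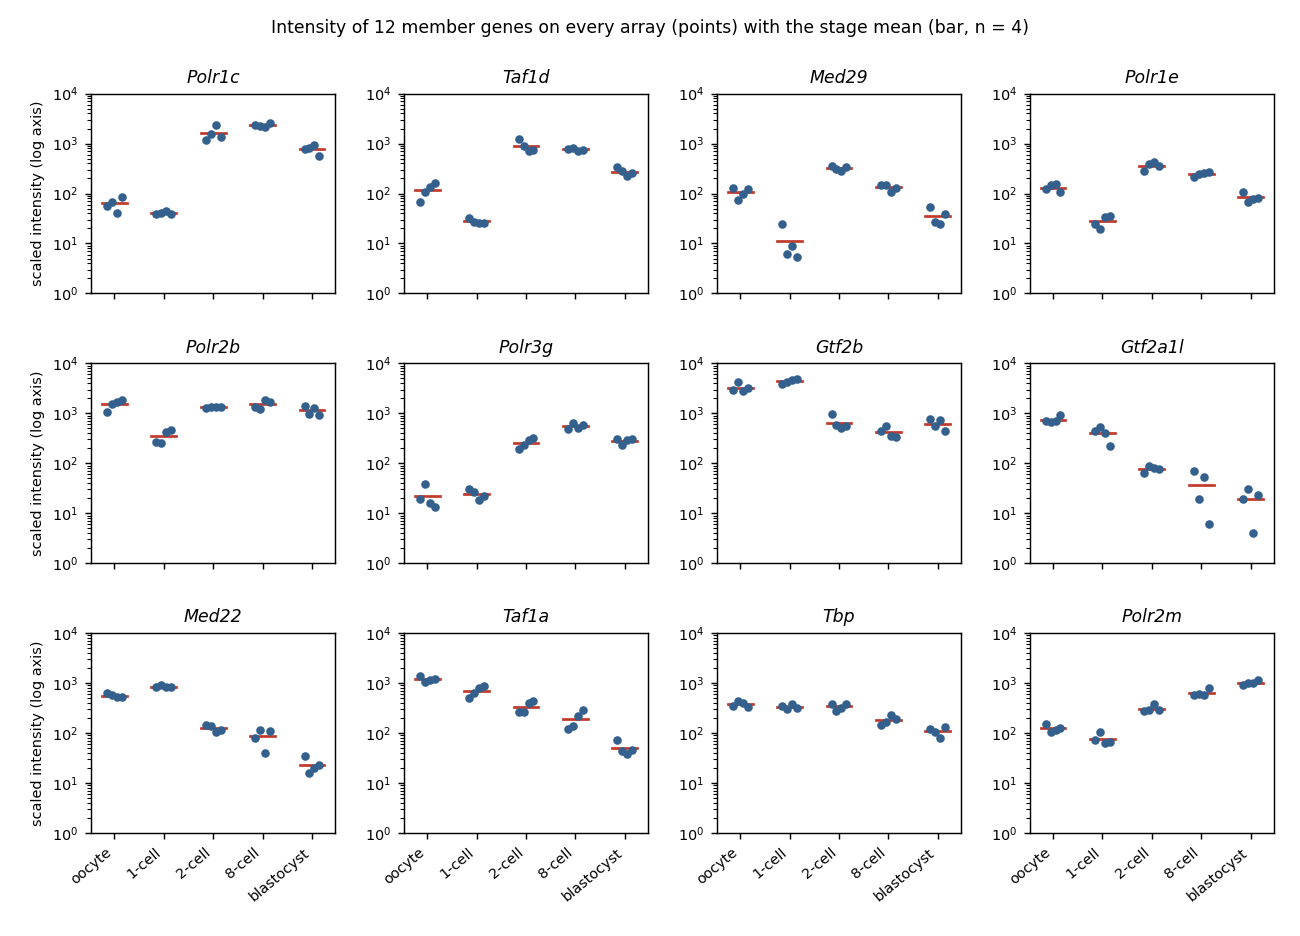
Scaled intensity of 12 member genes on each of the 20 arrays (points) with the stage mean (red bar, n = 4), on a log axis; values are compared within a panel only. Polr1c and Taf1d rise between the 1-cell and 2-cell stage, Polr1e, Polr2b and Med29 are lowest at the 1-cell stage, and Gtf2b, Gtf2a1l, Med22 and Taf1a are lower from the 2-cell stage on than in the oocyte.

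TFIIA and TFIIB genes fell in 3 of 3 cases into the 2-cell stage, then into the 8-cell stage, and also from oocyte to blastocyst. Among all genes tested, 22.7%, 25.7% and 33.6% fell at these comparisons. Control scaling left 2 of the TFIIA and TFIIB falls into the 2-cell stage called. Gtf2b, which is TFIIB and links TFIID to the polymerase, read 2957, 4190.4, 2807 and 3165 in oocytes, 3797, 4218, 4656 and 4839 on 1-cell arrays and 958, 583, 503 and 562 on 2-cell arrays. Every 2-cell value lay below the lowest oocyte and 1-cell values, which overlapped each other. The change into the 1-cell stage was 0.43 ± 0.21, not called, and the fall into the 2-cell stage was 2.77 ± 0.21 (limma adjusted p = 7.96e-12). The further fall of 0.60 ± 0.21 lost its call without any 1 of 3 arrays, and was smallest, at -0.40, without the first 2-cell array. Gtf2b ended 624 ± 156 in the blastocyst.

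Gtf2a1l, the TFIIA subunit known from germ cells, read 689.7, 678, 707 and 919 in oocytes, 445, 525, 402 and 219 on 1-cell arrays, 63.8, 89.5, 79.8 and 77.5 on 2-cell arrays, 70.4, 19.0, 52.2 and 6.1 on 8-cell arrays and 18.9, 30.2, 4.1 and 22.8 in blastocysts. Oocyte, 1-cell and 2-cell arrays did not overlap, and all blastocyst values lay below the intensity minimum. It fell by 4.68 ± 0.34 from oocyte to blastocyst, a change of -3.56 with the larger pseudocount of 48.6. The fall of 0.95 ± 0.34 into the 1-cell stage lost its call without several single arrays, and was smallest, at -0.69, without the fourth 1-cell array. Gtf2a1, its widely expressed relative, was 227 ± 24.4 in the oocyte and 81.9 ± 24.1 in the blastocyst, a fall of 1.38 ± 0.21. Its 3 probe sets disagreed at the 2-cell stage, where 1 was called lower and 1 higher, from -0.60 to 0.78.

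TFIIE and TFIIF genes fell in 3 of 3 cases into the 1-cell stage and rose in 3 of 3 cases into the 2-cell stage. For comparison, 16.6% of all genes tested fell at the first step and 22% rose at the second. Gtf2f1, the large TFIIF subunit, read 524, 569, 602 and 706 in oocytes, 147, 206, 288 and 299 on 1-cell arrays and 786, 1036, 1150.1 and 1178 on 2-cell arrays. The 3 stages did not overlap. It fell by 1.35 ± 0.20 and rose by 2.12 ± 0.20, with the rise called in both probe sets. Gtf2f2, the small subunit, fell by 0.93 ± 0.20 and rose by 1.76 ± 0.20, and Gtf2e2, a TFIIE subunit, fell by 1.55 ± 0.17 and rose by 1.30 ± 0.17. None of the 3 was called between oocyte and blastocyst, where the changes ran from -0.28 to 0.18.

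The 3 measured core genes of TFIIH, which opens promoter DNA and also serves DNA repair, did not move together. Gtf2h1 read 285, 435, 379 and 382 in oocytes, 1244, 1156, 953 and 877 on 1-cell arrays and 505, 693, 698 and 535 on 2-cell arrays. The 1-cell values lay above all others. The rise of 1.49 ± 0.16 was the largest rise of a member at this step and became 0.47, not called, under control scaling. Gtf2h4 rose by 1.20 ± 0.18 and 0.99 ± 0.18 and was 1.74 ± 0.18 higher in the blastocyst than in the oocyte; the second rise was 0.44 and not called under control scaling. Gtf2h3 rose by 0.86 ± 0.20 at the 8-cell stage, and that rise was 0.33 and not called under control scaling.

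Of the TFII-I family, which are regulators more than basal factors, Gtf2ird1 varied most. It read 569, 389.8, 476 and 618 in oocytes, 224, 164, 109.9 and 144 on 2-cell arrays, 10.8, 10.1, 10.6 and 6.8 on 8-cell arrays and 75.4, 92.3, 90.2 and 109.6 in blastocysts. The 8-cell values lay below the intensity minimum and below every other array. The fall of 2.95 ± 0.24 into the 8-cell stage and the rise of 2.25 ± 0.24 after it were -1.82 and 1.27 with the larger pseudocount of 48.6, and both kept their call. Gtf2i was 33.6 ± 5.27 in the oocyte and 129 ± 34.9 at the 2-cell stage, a rise of 1.52 ± 0.22 with both of its tested probe sets called higher.

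Of the 6 tested TFIIIA and TFIIIC genes, 3 rose at the 2-cell stage and 0 fell, where 22% of all genes rose and 22.7% fell. The 3 rises were of TFIIIC genes, and TFIIIA was not called there. Gtf3c5 read 5.3, 64.9, 8.9 and 11.9 on 1-cell arrays and 256, 288, 308 and 339 on 2-cell arrays. One 1-cell array stood above the other 3, and no 1-cell value came near the 2-cell ones. The rise was 3.42 ± 0.31. Gtf3c4 read 1.9, 2.2, 1.7 and 2.3 in oocytes, 3.9, 3.9, 1.6 and 1.9 on 1-cell arrays and 71.4, 81.8, 66.5 and 127 on 2-cell arrays. Its oocyte and 1-cell values lay far below the intensity minimum. It rose by 2.69 ± 0.24 and from oocyte to blastocyst by 3.53 ± 0.24, which was 1.99 with the larger pseudocount of 48.6. Gtf3c6 fell by 0.91 ± 0.16 and rose by 2.13 ± 0.16, with neither call in its other probe set.

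Gtf3c1, the largest TFIIIC subunit, changed by 0.38 ± 0.18 at the 2-cell stage and fell by 0.86 ± 0.18 into the 8-cell stage. Gtf3c2 rose by 1.02 ± 0.19 into the 1-cell stage, a change of 0.03 under control scaling. Gtf3a, which is TFIIIA and directs polymerase III to a ribosomal RNA gene, read 316, 227, 241 and 206 on 2-cell arrays, 136, 118, 106 and 129.5 on 8-cell arrays and 255, 256, 269.7 and 195 in blastocysts. The 8-cell arrays lay below both neighbours. The fall was 0.94 ± 0.18 and the rise 0.92 ± 0.18.

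Mediator's head, which contacts the polymerase, held genes with opposite courses. Med22 read 625, 575, 517 and 527 in oocytes, 827, 917, 823 and 849.5 on 1-cell arrays, 147, 142, 106 and 114 on 2-cell arrays and 34.8, 16.2, 20.5 and 22.6 in blastocysts. The 2-cell values lay below every oocyte and 1-cell value and the blastocyst values below those. It fell by 2.65 ± 0.22 into the 2-cell stage and fell by 4.03 ± 0.22 from oocyte to blastocyst, and the rise of 0.60 ± 0.22 before it was -0.42 under control scaling and lost its call without any 1 of 7 arrays. Med17, a core scaffold of the head, fell by 1.32 ± 0.20 and 1.29 ± 0.20, and its other probe set was called at neither step.

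Med8, another head subunit, read 848, 812, 704 and 926 in oocytes, 89.3, 101, 121 and 162 on 1-cell arrays, 223, 202, 332 and 291 on 2-cell arrays and 549, 488, 569.9 and 461 on 8-cell arrays. These 4 stages did not overlap. It fell by 2.70 ± 0.19 into the 1-cell stage and rose by 1.07 ± 0.19 and 0.97 ± 0.19, the latter not called under control scaling. Med20 fell by 1.18 ± 0.20, rose by 1.07 ± 0.20 and fell by 1.27 ± 0.20, with both probe sets called each time, and only the first of these was called under control scaling. Med6 fell by 1.60 ± 0.22 into the blastocyst, and Med11 was called at no step.

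In the middle module, Med7 was the gene with the largest early change. It read 883, 1105, 1023 and 1559 in oocytes, 140.0, 137, 206 and 241 on 1-cell arrays and 650.0, 674, 756 and 660.3 on 2-cell arrays. The 1-cell arrays lay below all others. It fell by 2.58 ± 0.19 and rose by 1.89 ± 0.19. Med10, Med31 and Med1 rose into the 1-cell stage by 0.79 ± 0.14, 0.96 ± 0.23 and 1.20 ± 0.21, and under control scaling these changes were -0.24, -0.07 and 0.23, none called. Med10 and Med31 fell at each of the 3 later steps, of which control scaling kept the call into the 8-cell stage and median centring did not (-0.36 and -0.59), and Med4 fell by 1.82 ± 0.19 from oocyte to blastocyst. Med21, which holds the middle module together, fell by 1.06 ± 0.23 into the 8-cell stage.

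Med1, the subunit that docks nuclear receptors, had 6 tested probe sets. From oocyte to blastocyst 2 were called higher and 2 lower, from -1.51 to 1.11, so no direction can be read for the gene. Med26, which couples Mediator to elongation factors, fell by 0.73 ± 0.18, rose by 0.83 ± 0.18 and fell by 0.63 ± 0.18 and 0.84 ± 0.18, the last a change of 0.18 under control scaling. Med19 and Med9 were called at no step on their brighter probe sets, while the dimmer probe set of Med9 rose by 1.36 into the 2-cell stage and that of Med19 fell by 0.99 into the 1-cell stage and rose by 1.17 into the 8-cell stage. The brighter Med19 probe set was called higher into the 8-cell stage under quantile normalization (0.67) and median centring (0.60). Med14, the backbone that joins head, middle and tail, read 97.0, 71.0, 92.3 and 85.9 on 1-cell arrays, 221, 294, 278 and 271 on 2-cell arrays and 63.7, 25.3, 50.6 and 56.7 on 8-cell arrays. Its 2-cell arrays stood above all others, with a rise of 1.49 ± 0.22 and a fall of 2.22 ± 0.22.

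The tail, which receives many activators, held Med29, the member Mediator gene with the largest rise at the 2-cell stage. It read 128, 74.5, 97.2 and 120.4 in oocytes, 24.9, 6.2, 9.0 and 5.4 on 1-cell arrays, 348, 315, 283 and 339.6 on 2-cell arrays, 149, 148, 108 and 126 on 8-cell arrays and 53.7, 26.8, 24.4 and 38.6 in blastocysts. All 1-cell values lay below the intensity minimum and below every oocyte value. It fell by 2.36 ± 0.24 and rose by 3.89 ± 0.24. The other probe set rose at the 2-cell stage too, by 1.52, but changed by 0.11 at the step before and by 0.68, called higher, from oocyte to blastocyst, where the brighter one fell by 1.30 ± 0.24.

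Med30 read 1219, 1591, 1354 and 1621 in oocytes, 3516, 3488, 3757 and 2295 on 1-cell arrays, 1476, 867, 493 and 733 on 2-cell arrays and 169.5, 184, 232 and 106 on 8-cell arrays. The 1-cell arrays were the highest and the 8-cell arrays the lowest. The rise of 1.15 ± 0.26 became 0.12, not called, under control scaling, after which Med30 fell by 1.94 ± 0.26 and then fell by 2.23 ± 0.26. Med15, the tail subunit bound by sterol-responsive activators, rose by 1.22 ± 0.19 into the 1-cell stage, 0.24 and not called under control scaling, and fell by 1.36 ± 0.19 into the 8-cell stage. Med28 fell by 2.48 ± 0.21 from oocyte to blastocyst with both probe sets called, and Med23 and Med27 by 1.33 ± 0.18 and 1.07 ± 0.19. Med16 was called at no step.

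In the kinase module, which can be detached from Mediator, Med12l read 80.6, 73.2, 82.2 and 93.4 on 8-cell arrays and 279, 299, 293 and 238 in blastocysts. The blastocyst arrays lay above every earlier array. It rose by 1.61 ± 0.20 at this step and by 2.27 ± 0.20 from the oocyte (limma adjusted p = 7.96e-11). Both rises kept their call under control scaling. From 8-cell to blastocyst that scaling moved the median of all genes from -0.22 to 0.67, so it is no separate check on the first rise. Med12, the relative of Med12l, was 88.5 ± 19.5 in the oocyte and 60.6 ± 12.7 in the blastocyst and was called in none of the 5 comparisons.

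Partner genes of these complexes were taken from a list of 67, of which 53 were tested. They counted 12 higher and 16 lower into the 1-cell stage and 25 and 12 into the 2-cell stage. The counts were 9 and 19 into the 8-cell stage, 7 and 21 into the blastocyst, and 16 and 19 from oocyte to blastocyst. Of all genes tested, 15.2% rose and 16.6% fell into the 1-cell stage, and 22% and 22.7% into the 2-cell stage. Those shares were 22.2% and 25.7% into the 8-cell stage, 20% and 26.4% into the blastocyst, and 26.2% and 33.6% from oocyte to blastocyst. Under control scaling the partner count into the blastocyst was 24 higher and 1 lower and that into the 1-cell stage 1 higher and 28 lower. The kinases of TFIIH and Mediator with their partners fell in 5 of 7 cases into the 1-cell stage. Cdk7 and Ccnh, the kinase and cyclin of TFIIH, were both lower: Cdk7 fell by 2.42 ± 0.20 and Ccnh fell by 2.63 ± 0.22. Ercc3, its DNA translocase, went from 126 ± 28.8 to 7.58 ± 4.67, a fall of 2.81 ± 0.21, and rose by 3.29 ± 0.21 at the 2-cell stage. Cdk8, the Mediator kinase, rose by 0.60 ± 0.14 into the 2-cell stage and fell by 1.80 ± 0.14 into the 8-cell stage.

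Among TBP's relatives and regulators, Tbpl1, a TBP-like factor, rose by 1.35 ± 0.23 and 0.83 ± 0.23. Dr1, which binds TBP and represses it, went from 51.0 ± 6.34 at the 1-cell stage to 1450.0 ± 139 at the 2-cell stage and 69.4 ± 10.8 at the 8-cell stage. That is a rise of 4.53 ± 0.17 and a fall of 4.17 ± 0.17, with its partner Drap1 falling by 1.16 ± 0.30 at the first of these steps. The polymerase I factors Ubtf, Rrn3 and Ttf1 rose in 3 of 3 cases at the 2-cell stage, by 0.98 to 1.36. The 3 measured polymerase III initiation genes rose too, with Snapc2, of the complex that serves small nuclear RNA genes, at 3.52 ± 0.24. At that step 22% of all genes tested rose.

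Genes of polymerase II pausing and elongation counted 8 higher and 6 lower of 22 at the 2-cell stage, a balance that was 7 and 8 under median centring. The rises included Ell2, an elongation factor, by 4.63 ± 0.24, Hexim1, an inhibitor of the elongation kinase, by 4.20 ± 0.23, and Cdk9, the elongation kinase, by 2.35 ± 0.25. The polymerase II tail phosphatases and assembly factors counted 3 higher and 3 lower of 11 at that stage, with a median of -0.20. Beside both lists, 22% of all genes tested rose at that stage and 22.7% fell. Gpn1 and Gpn3, which help bring polymerase II into the nucleus, rose by 2.65 ± 0.15 and 2.38 ± 0.19, and their relative Gpn2 fell by 1.27 ± 0.19. In mitochondria, where Polrmt is the polymerase, Polrmt fell by 1.64 ± 0.18 from oocyte to blastocyst while its cofactor Tfam rose by 2.06 ± 0.24.

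Of the 83 members, 31 had several tested probe sets. The counts that follow take only opposed calls, not a called probe set beside one that was not called. Their calls opposed each other in 0 genes into the 1-cell stage, in 2 into the 2-cell stage (Gtf2a1 and Polr3k), in 0 into the 8-cell stage, in 1 into the blastocyst (Polr1d) and in 3 from oocyte to blastocyst (Med1, Med29 and Polr2a). Of the subunits fixed for description, Polr2k, Taf1, Taf4b, Taf9 and Gtf2a2 are not analysed here.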

How the data were processed

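Each of 20 samples was measured on 1 Affymetrix MOE430A array, and the authors deposited 1 intensity per probe set and array. The array values share a trimmed mean of 150.05 to 150.08 with 2% trimmed at each end, which shows that they were scaled before they were deposited. The software and background step are not named there: not given in the sources used here. The 64 control probe sets were left out of tests. Probe sets were named through the platform annotation: 20380 had 1 gene symbol, 691 several and 1555 none, and 20351 matched the RefSeq gene table. Another 5 probe sets that list Taf9, Polr2l or Polr2k beside another gene were left out.

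Values were tested as log2(intensity + 12.15) with limma 3.58.1 in R 4.3.3 on 17208 probe sets above 32.9 (the 40th percentile of all values) on at least 4 arrays, in 1 fit over the 5 stages with an intensity trend. The probe set with the highest mean stood for a gene. The fit was tested on simulated data with known changes. Members with array or stage values were a fixed set plus, at each comparison and in each role list, the largest called changes whose arrays did not overlap; this rule named 69 genes. Members, lists and rule were chosen with earlier results of these data known. Alternatives were quantile normalization, median centring, scaling to 18 hybridization-control probe sets (called control scaling), pseudocounts of 3.04 and 48.6, no filter and one at 71.8 (the 60th percentile), a fit of the compared stages alone, no trend, a replicate block, the mean over a gene's probe sets, and each array left out. Replicate numbers did not pair the samples. Of 190 pairs of arrays, 0 were identical. Promoter sequences are RefSeq's on GRCm38.p6.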

Additional observations from a re-analysis of the deposited data

Results flagged for a closer look

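In 15 of the 345 groups of 4 arrays formed by the 69 named genes and the 5 stages, 1 array lay far from the other 3, with a gap above Dixon's critical value of the group's range. Chance gives such a gap in about 1 in 20 groups. In oocytes the fourth array was high for Taf10, at 813.6 against 482.1 to 507.2, for Gtf2a1l, at 918.6 against 677.6 to 707.3, and for Med26, at 324.6 against 255.4 to 264.0. The first oocyte array was high for Taf5l, at 160.1 against 134.8 to 138.7. At the 1-cell stage the second array was high for Gtf3c5, at 64.9 against 5.3 to 11.9, the fourth for Med12, at 74.0 against 59.7 to 60.1, and the first low for Taf6l, at 12.7 against 73.1 to 77.5.

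At the 2-cell stage the third array was high for Polr2m, at 376.0 against 275.0 to 289.6. At the 8-cell stage the fourth array was high for Polr2m, at 793.7 against 570.6 to 600.6, for Taf5l, at 401.0 against 249.4 to 268.0, and for Gtf2a1, at 129.1 against 70.7 to 77.4. The first 8-cell array was high for Taf12, at 188.0 against 139.2 to 146.0, and the third for Gtf2h1, at 659.0 against 531.2 to 550.1. In blastocysts the third array was high for Med4, at 372.7 against 203.4 to 216.6, and the fourth low for Polr2c, at 611.4 against 761.7 to 786.8.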

How the results depend on the processing

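Control scaling, which takes 18 hybridization-control probe sets as the reference, moved the most values. Under it the counts of members were 0 higher and 50 lower into the 1-cell stage, 11 lower into the 2-cell stage, 0 higher into the 8-cell stage, and 37 higher and 0 lower into the blastocyst, and the other 4 counts stayed within 1.5 times. The cause was not tested. The share of rises among all called genes moved from 47.84% to 0.339%, from 49.17% to 62.66%, from 46.33% to 19.66%, from 43.09% to 95.83% and, from oocyte to blastocyst, from 43.78% to 33.76%, and median centring moved the fourth to 53.71%. The called rises into the 1-cell stage that changed sign under it were Taf6 -0.44, Polr2f -0.42, Med22 -0.42, Gtf2a1 -0.42, Med25 -0.36, Med10 -0.24, Med27 -0.20, Taf7 -0.13, Gtf2ird2 -0.078, Med31 -0.073, Taf10 -0.061 and Taf4 -0.002. The called falls into the blastocyst that changed sign were Gtf2h3 0.063, Taf5l 0.10, Polr3g 0.13, Polr3k 0.14, Gtf2f2 0.17, Med26 0.18, Med23 0.19, Gtf3c2 0.20, Med4 0.24, Med24 0.24, Taf8 0.26, Polr2f 0.27, Polr1d 0.31, Tbp 0.34, Polr2h 0.39, Polr1a 0.43, Polr3a 0.44, Gtf2f1 0.46, Gtf2h1 0.50, Polr2d 0.51, Med10 0.54 and Polr2c 0.70. Changes that were not called, and were called with the opposite sign under it, included Gtf3a -0.92 and Med21 -0.81 into the 1-cell stage and Polr2b 0.70, Gtf2i 0.74 and Taf10 0.83 into the blastocyst. Averaging a gene's probe sets turned Polr3k into the 2-cell stage to -0.016. Of 217 values of named members, the settings other than leaving out an array left 2267 results unchanged in direction and call, lost 67 calls, gained 28 and reversed 25. Leaving out each array in turn gave 13 to 20 higher and 29 to 31 lower into the 1-cell stage, 34 to 37 and 16 to 19 into the 2-cell stage, 11 to 13 and 33 to 36 into the 8-cell stage, 8 to 10 and 33 to 36 into the blastocyst, and 19 to 20 and 40 to 42 from oocyte to blastocyst. It lost 45 calls of named members, among them Gtf2a1, Gtf2a1l and Med22 into the 1-cell stage, Polr1e and Gtf2b into the 8-cell stage, and Polr1a, Polr2c, Polr3a and Gtf2b into the blastocyst, gained 12 and reversed 0. With the replicate number as a block (replicate block) the counts were 19 and 31, 35 and 19, 12 and 37, 10 and 36, and 19 and 40. Samples of 1 number had mean correlations of their deviations of -0.01 to 0.04, so the numbers were not taken as a pairing. Probe sets near the intensity minimum have little signal over background, and their changes are understated.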
